A study of Homo sapiens with 6 samples.

Results

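Clade B serpins were described here as 10 genes, SERPINB1 to SERPINB9 and SERPINB13, taken from the deposited table by gene symbol. The table held 58884 genes, and each of the 10 symbols had 1 row. RNA-seq compared the established human esophageal carcinoma line KYSE70, of squamous type and with a mutant NFE2L2 gene, with NRF2null-KYSE70, in which NFE2L2 had been cut with CRISPR-Cas9 and 1 clone expanded. Each line had 3 libraries of untreated cells, with 52072801 to 63975313 reads on genes in each (NRF2 is the transcription factor that NFE2L2 encodes), and the lines shared medium, serum and the parental NFE2L2 mutation up to the cut. Because the null line was 1 clone, p-values measured the spread between libraries of a line and not the spread between clones, and nothing in the labels says whether the libraries came from separate cultures. The study states that some NFE2L2 transcript variants were still expressed in the clone. The targeted RNA, NFE2L2, stood at 9928 ± 102 normalized counts in the parental line and at 6093 ± 318.8 in the null line, 61.4% of the parental level. Values after ± are standard deviations (SD) over the 3 libraries of a line (n = 3) throughout.

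Serpins are protease inhibitors that act once. A target protease cuts the exposed reactive loop of the serpin, which then changes shape and traps the protease in a covalent complex. Most serpins are secreted, whereas clade B serpins mostly lack a classical secretion signal and act inside cells or are released by other routes. They are known in squamous epithelium for restraining cathepsins, kallikreins and furin, in keratinocyte differentiation and skin barrier disease, and as tumor markers.

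The members lie in 2 groups on the genome. SERPINB1, SERPINB9 and SERPINB6 sit within 139.8 kb on chromosome 6 (2832332 to 2972165, hg38). The other 7 members and 3 further clade B genes, SERPINB10, SERPINB11 and SERPINB12, sit within 542.8 kb on chromosome 18 (63476958 to 64019779). Their order along the plus strand is SERPINB5, SERPINB12, SERPINB13, SERPINB4, SERPINB11, SERPINB3, SERPINB7, SERPINB2, SERPINB10 and SERPINB8, with SERPINB11 beginning before SERPINB3 and reaching past it. SERPINB3 and SERPINB4 are read from the minus strand and the rest of the chromosome 18 group from the plus strand.

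The promoters of SERPINB7 and SERPINB8 are shown because these members had the largest differences between the lines. The starts are those of RefSeq (GRCh38.p14, plus strand) at which the canonical GENCODE transcripts also begin, and the motifs were searched from 250 bases before to 50 after each start (start base at 0). The motifs were the antioxidant response element bound by NRF2 (TGACNNNGC), the TEAD element (GGAATG), and TGANTCA, searched on both strands. TGANTCA is a looser form of the AP-1 element TGAGTCA, so TGAATCA and TGATTCA match the looser form only. All motifs were chosen after the expression values were seen. Capitals mark the matches, and each upstream stretch is printed from 250 bases before the start to the first base that an annotated exon of the gene covers, with the match nearer to the start on a line of its own.
SERPINB7 upstream, chr18:63775168-63775374: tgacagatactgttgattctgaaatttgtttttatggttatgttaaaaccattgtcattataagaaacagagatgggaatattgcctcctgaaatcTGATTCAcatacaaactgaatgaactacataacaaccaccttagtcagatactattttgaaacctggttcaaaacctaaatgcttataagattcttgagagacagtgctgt
SERPINB7 near the start, chr18:63775371-63775393: ctgtgctcTGAGTCAtagggaag
SERPINB8 upstream, chr18:63969831-63970028: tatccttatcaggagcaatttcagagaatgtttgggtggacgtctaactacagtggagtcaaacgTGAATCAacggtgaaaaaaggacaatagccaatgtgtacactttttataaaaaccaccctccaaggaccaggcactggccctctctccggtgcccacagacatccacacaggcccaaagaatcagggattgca
SERPINB8 near the start, chr18:63970045-63970067: aacggttcTGAGTCAtctgccgg

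All of these matches are to TGANTCA, 2 in each of these promoters. SERPINB7 has 3 RefSeq starts, and its first, at 63753057, had no match to any of the motifs. The match nearer to the start read TGAGTCA in both promoters shown, at -39 to -33 in SERPINB7 and at -28 to -22 in SERPINB8. In both genes this match lies after the first base that an annotated exon of the gene covers, where the printed upstream stretch ends. The data do not show which start was used in these cells. The other matches to TGANTCA among the members are shown with 8 bases on each side, to compare them with the first pair.
SERPINB7, start at 63777781, chr18:63777728-63777750: ggagtgtcTGAGTCAgaggcttt
SERPINB7, start at 63777781, chr18:63777567-63777589: ctaaaattTGATTCAttaaaaat
SERPINB13, chr18:63587248-63587270: agagatgcTGACTCAgttggtct
SERPINB5, chr18:63476804-63476826: cttcagccTGAATCAtttctttc
SERPINB2, chr18:63887595-63887617: taaaatgtTGAATCActcaaagg

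SERPINB13 carries TGACTCA, which is TGAGTCA read on the other strand, and SERPINB5 and SERPINB2 carry TGAATCA. In all, 5 of 10 members had TGANTCA in a window of 300 bases, in 6 of their 15 RefSeq promoters, whereas 7.71% of all 35116 promoters in the RefSeq table had it. All 6 except that of SERPINB5 (59.7%) had a GC content of 29.7% to 48.7%, against a median of 58.7% over all promoters. These shares were not matched for GC content. TGAGTCA was found for 3 of 10 members, in 4 of the 15 promoters, and in 4.95% of all. The NRF2 element was found for 2 of 10 members, SERPINB1 and SERPINB9, in 2 of the 15 promoters, and in 13.3% of all promoters, so its share was near the background. Both genes lie on the minus strand and, by the reads given later, were at or near 0 in both lines, so their matches are shown for the letters alone.
SERPINB1, chr6:2841845-2841869, minus strand: ctccttccTGACCTCGCacccagct
SERPINB9, chr6:2903429-2903453, minus strand: ccctgaccTGACCCTGCtcccagct

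GGAATG was found for SERPINB3 and SERPINB4, in 2 of the 15 promoters, and in 14.0% of all promoters. A match is a description of letters, several promoters belong to 1 gene, and no match says only that the letters are not in this window.

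Of the 10 members, 5 were expressed enough to be tested, with a mean of at least 10 normalized counts over the 6 libraries. Normalized counts are the reads of a gene after division by the size factor of the library, and 1 read was worth 0.889 to 1.14 of them. SERPINB7 and SERPINB8 rose in NRF2null-KYSE70, SERPINB13 rose and SERPINB5 fell by less, and SERPINB6 did not pass the test. The threshold was an adjusted p under 0.05 (limma, Benjamini-Hochberg over all tested genes) together with a log2 fold change of 1 or more in either direction. It was passed by 2 of the 5, both higher, and by 14.7% of all 15994 tested genes, 7.23% as higher and 7.43% as lower. At an adjusted p under 0.05 alone, 4 of the 5 passed, 3 higher and 1 lower, against 57.6% of all tested genes, 29.3% higher and 28.3% lower. No library of one line fell within the range of the other for 4 of the 5, against 63.4% of all tested genes. Since most genes passed the adjusted p alone and few members were tested, that share is not read as a property of the family. The median log2 fold change of the 5 tested members was 0.53, against -0.01 over all tested genes.

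**Figure D1:**
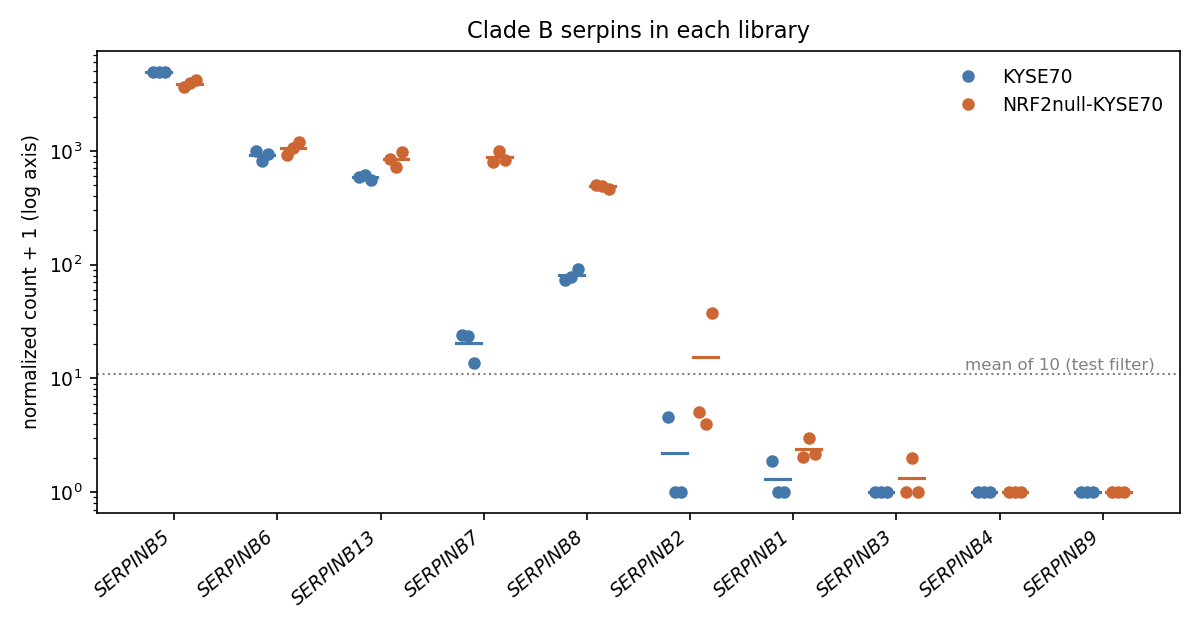
Normalized count plus 1 (log axis) of each clade B serpin in every library, ordered by mean level. Points are libraries, short lines are means of 3 libraries, and the dotted line is the mean of 10 used as the filter. SERPINB7 and SERPINB8 are far apart between the lines. SERPINB5 and SERPINB13 are apart by less, without overlap of their libraries, and the libraries of SERPINB6 overlap. The other 5 members are near 0 except for SERPINB2 in library 3 of NRF2null-KYSE70, at 36.5 normalized counts.

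SERPINB7 (ENSG00000166396, chromosome 18, 63752935 to 63805376) is a serpin of the upper epidermis whose loss causes a palmoplantar keratosis. It had 23.1, 22.7 and 12.7 normalized counts in the KYSE70 libraries and 804, 998 and 823 in the NRF2null-KYSE70 libraries. All 3 null libraries were high and all 3 parental libraries low, with no overlap. The means were 19.5 ± 5.92 and 875 ± 107, a 44.9-fold difference (log2 fold change 5.46 with SE 0.231 by limma, adjusted p = 9.33e-10). Only 25 of the 15994 tested genes had a larger log2 fold change upwards. The parental level rested on 26, 25 and 12 reads, against 793, 1018 and 721 in the null line. In bulk RNA, fewer cells with a transcript and less of it per cell cannot be told apart.

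SERPINB8 (ENSG00000166401, chromosome 18, 63970029 to 64019779) inhibits the proprotein convertase furin and is mutated in a peeling skin syndrome. It had 72.9, 77.1 and 90.7 normalized counts in KYSE70 and 503, 493 and 466 in NRF2null-KYSE70. The groups were again apart, and the spread within each was small. The means of 80.2 ± 9.29 and 487 ± 19.3 differed 6.07-fold (log2 fold change 2.59 with SE 0.147 by limma, adjusted p = 1.33e-08). In the annotation, SERPINB8 shares 370 exon bases with HMSD on the same strand and 153 with an unnamed RNA gene on the other strand (ENSG00000283667). HMSD had no read in any library, and the RNA gene had 50.9 normalized counts summed over the 6 libraries. Per kilobase of transcript, the level of SERPINB7 relative to SERPINB8 was 0.379 ± 0.146 in the parental line and 2.72 ± 0.324 in the null line (two-sided exact permutation test, p = 0.1, the smallest that 3 against 3 libraries can give). SERPINB8 was thus the more abundant of the pair in every parental library and SERPINB7 in every null library.

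SERPINB13 (ENSG00000197641, chromosome 18, 63586989 to 63604639), also called headpin, inhibits cathepsins K and L and is found in differentiating squamous epithelium. It had 588, 614 and 556 normalized counts in KYSE70 and 848, 728 and 978 in NRF2null-KYSE70. The null libraries were all higher but spread more widely than the parental ones. The log2 fold change was 0.53 (SE 0.108 by limma, adjusted p = 0.00103), under the fold cut-off.

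SERPINB5 (ENSG00000206075, chromosome 18, 63476958 to 63505085), or maspin, is the member that does not inhibit proteases and is known as a tumor suppressor of epithelial cells. It had 4938, 4960 and 4900 normalized counts in KYSE70 and 3613, 3946 and 4169 in NRF2null-KYSE70. Every null library was below every parental one, and SERPINB5 had the most normalized counts of the members in both lines. The null line kept 79.3% of the parental level (log2 fold change -0.34 with SE 0.0574 by limma, adjusted p = 0.000249).

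SERPINB6 (ENSG00000124570, chromosome 6, 2948159 to 2972165) inhibits cathepsin G and the kallikrein KLK8 and is expressed in many tissues. It had 992, 812 and 945 normalized counts in KYSE70 and 910, 1052 and 1184 in NRF2null-KYSE70, so the libraries of the lines overlapped. The log2 fold change was 0.19, with a 95% interval from -0.04 to 0.42 (limma adjusted p = 0.142). The interval leaves room for no difference and for a moderate rise. Leaving out NRF2null-KYSE70 library 1 brought it past an adjusted p of 0.05 (log2 fold change 0.29, limma adjusted p = 0.0131), whereas it was 0.10 without NRF2null-KYSE70 library 3.

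The other 5 members were at or near the limit of detection. SERPINB2, or plasminogen activator inhibitor 2, blocks urokinase and tissue plasminogen activator. The parental libraries held 4, 0 and 0 reads of it and the null libraries 4, 3 and 32. Library 3 of the null line thus held 32 of its 43 reads, and without that library the lines had 4 and 7 reads. Genes with at least 20 reads in 1 library and at most 5 in each of the others numbered 3 in that library, SERPINB2 included, and from 1 to 5 in the other libraries. In the annotation, SERPINB2 also shares 547 exon bases on its strand with a gene that was not analysed here. SERPINB1, which inhibits the neutrophil proteases elastase, proteinase 3 and cathepsin G, had 1 read in KYSE70 and 4 in NRF2null-KYSE70. SERPINB3, a squamous cell carcinoma antigen that inhibits cathepsins L, K and S, had 1 read, in the null line. SERPINB4, its near-identical neighbour that inhibits cathepsin G and chymase, and SERPINB9, the inhibitor of granzyme B, had 0 reads among the 352796770 assigned reads of all 6 libraries. A count of 0 allows up to 3 reads in that total, for counting error only. How reads that fit both SERPINB3 and SERPINB4 were counted is not given in the sources used here, so the low counts of these near-identical genes are uncertain. Of the 3 clade B genes that were not members, SERPINB10 and SERPINB11 had no read and SERPINB12 had 1.14 normalized counts in 1 null library.

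The chromosome 18 group was next compared with the genes around it. SERPINB7 and SERPINB8 were separated by SERPINB2 and SERPINB10, which were at or near 0, and SERPINB13 lay between SERPINB12 and SERPINB4, at 1 and 0 reads. The tested coding genes within 1 Mb were 5, all before SERPINB5 and none past the threshold, with log2 fold changes from 0.04 to 0.49. The nearest, VPS4B, an ATPase of endosomal sorting, had one of 0.42 (SE 0.0577 by limma, adjusted p = 4.22e-05). Within 10 Mb on either side the median over 32 coding genes was -0.18, with 3 past the threshold as higher and 7 as lower. Over all tested genes these shares were 7.23% and 7.43%. For the chromosome 6 group, 12 neighbours within 1 Mb had a median of 0.27, and 2 passed the threshold, of which FAM50B was below the filter mean in KYSE70. SERPINB6 lay between WRNIP1, the nearest tested neighbour before the group (0.22, limma adjusted p = 0.00887), and NQO2, a quinone reductase and the nearest after it (-0.44, limma adjusted p = 0.000197). The median within 10 Mb on chromosome 6 was 0.19, the same as the value of SERPINB6.

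**Figure D2:**
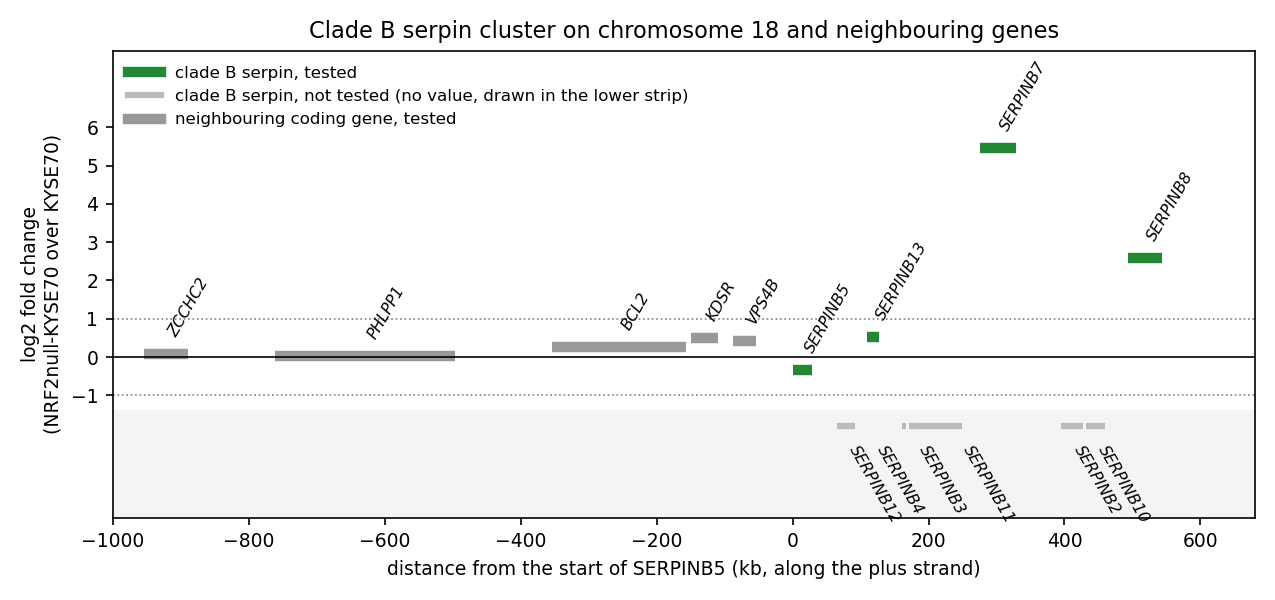
Log2 fold change (NRF2null-KYSE70 over KYSE70) of the tested clade B serpins of chromosome 18 and of coding neighbours, against distance in kb from the start of SERPINB5; bar length is gene length, and genes without a tested value are in the lower strip. SERPINB7 (5.46) and SERPINB8 (2.59) stand above the dotted line at 1, and SERPINB13 (0.53) and SERPINB5 (-0.34) lie nearer to 0. The 5 coding neighbours, all before SERPINB5, lie between 0.04 and 0.49, and none was tested on the SERPINB8 side.

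Levels of different members were compared per kilobase of the canonical transcript. In KYSE70 the order was SERPINB5 (1908 ± 11.7 normalized counts per kilobase), SERPINB6 (697 ± 71.2), SERPINB13 (187 ± 9.34), SERPINB8 (24.2 ± 2.80) and SERPINB7 (8.88 ± 2.70). In NRF2null-KYSE70 it was SERPINB5 (1512 ± 108), SERPINB6 (797 ± 104), SERPINB7 (399 ± 48.7), SERPINB13 (272 ± 40.1) and SERPINB8 (147 ± 5.82). No 2 neighbours in either order overlapped between their libraries. SERPINB7 went from the last to the third place. The place of SERPINB6 depended on the length used, since its annotated exons together span 13.2 kb and its canonical transcript 1.31 kb. Per kilobase of all annotated exons it had 69.4 in KYSE70, below SERPINB13 (129), and 79.4 in NRF2null-KYSE70, below SERPINB7 (332), SERPINB13 (188) and SERPINB8 (84.6).

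The sum of the 10 members per kilobase was 2887, 2765 and 2824 in KYSE70 and 2880, 3165 and 3360 in NRF2null-KYSE70, so the libraries of the lines overlapped. The means of 2825 ± 60.9 and 3135 ± 241 had a ratio of 1.11 (two-sided exact permutation test, p = 0.2, where 0.1 is the smallest possible). Without division by length the sums were 6486 to 6619 and 6683 to 7658, and per kilobase of all annotated exons 1524 to 1548 and 1616 to 1826, so under either the libraries did not overlap (exact permutation p = 0.1 for each). The make-up of the sum differed more. SERPINB5 accounted for 67.5% ± 1.65 in KYSE70 and 48.2% ± 0.261 in NRF2null-KYSE70, and SERPINB7 for 0.314% ± 0.0954 and 12.8% ± 1.61. The share of SERPINB8 was 0.856% ± 0.104 and 4.71% ± 0.543, and that of SERPINB6 was 24.6% ± 2.03 and 25.4% ± 1.39. Per kilobase of all annotated exons SERPINB6 had 4.51% ± 0.466 and 4.57% ± 0.324 of the sum, SERPINB5 85.7% ± 0.345 and 60.2% ± 0.688, and SERPINB7 0.479% ± 0.143 and 19.2% ± 2.21, so the shares depended on the length, while the direction for SERPINB5 and SERPINB7 was the same with both lengths.

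**Figure D3:**
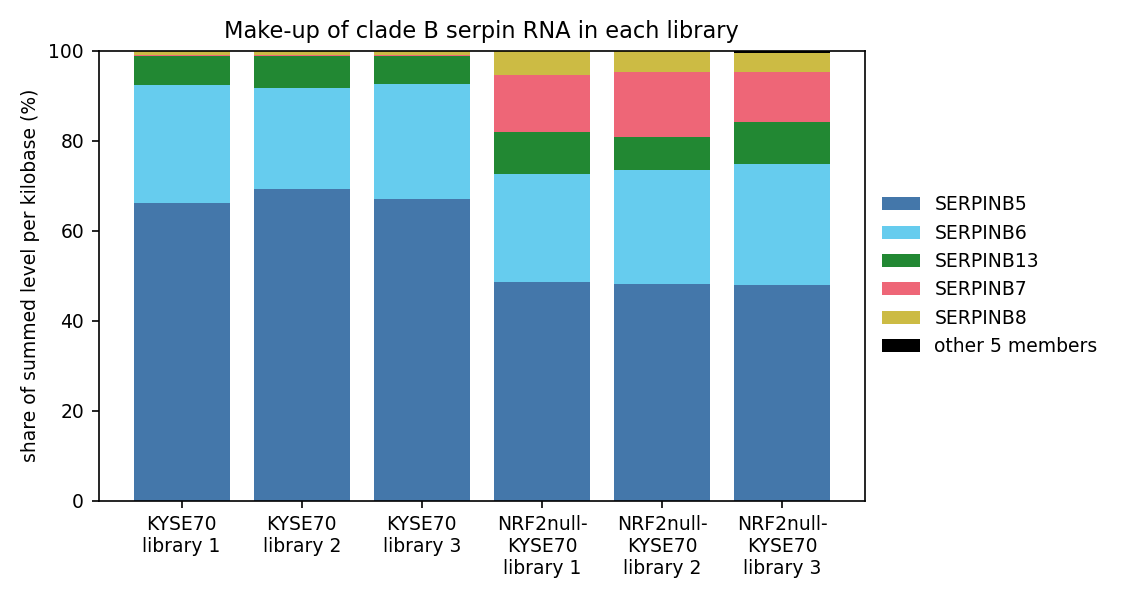
Share (%) of each clade B serpin in the summed level per kilobase of canonical transcript, 1 bar per library. SERPINB5 takes 66.1% to 69.4% of the sum in the KYSE70 libraries and 48.0% to 48.5% in the NRF2null-KYSE70 libraries, where SERPINB7 takes 11.2% to 14.4%.

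The proteases that clade B serpins are known to inhibit were compared as a list of 14 genes, of which 7 were tested. Of these, 2 were past the threshold as higher and 1 as lower, against 7.23% and 7.43% of all tested genes. The median log2 fold change was 0.36. The 2 higher genes and the median include PLAU, which passed the filter only through the null line. Neither is therefore read as a rise of the list. A pair of related lysosomal cathepsins moved in opposite directions. CTSL, a target of SERPINB3 and SERPINB13, fell from 2596 ± 30.5 to 742 ± 66.9 normalized counts, which gave -1.81 on the log2 scale (SE 0.0758 by limma, adjusted p = 8.51e-10). CTSV, the cathepsin most similar to it, rose from 5333 ± 58.5 to 14349 ± 489, which gave 1.43 on the log2 scale (SE 0.0455 by limma, adjusted p = 7.48e-11). No library of 1 line overlapped the other for either gene. PLAU, encoding urokinase, was the other gene counted as higher, at 3.34 ± 2.16 in KYSE70 and 17.5 ± 4.48 in NRF2null-KYSE70. It passed the filter on low values only through the null line (11 reads in all parental libraries), so its call is not used as a result. FURIN and KLK8, targets of SERPINB8 and SERPINB6, were picked with their values known and had log2 fold changes of 0.36 (adjusted p = 0.000879 by limma) and -0.40 (adjusted p = 0.00931). Among the listed proteases, ELANE, PRTN3, CTSG, CMA1 and GZMB, known from leukocytes, were at 0 to 3.04 normalized counts in every library.

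In the plasminogen activation list, 8 of 11 genes were tested. PLAUR, the urokinase receptor, rose from 487.8 ± 11.8 to 1056 ± 49.2 normalized counts (log2 fold change 1.11, limma adjusted p = 1.47e-07). The other gene counted past the threshold was PLAU, which passed the filter only through the null line. Over all tested genes, 7.23% were past the threshold as higher. At an adjusted p under 0.05 alone, 6 were higher and 1 was lower, against 29.3% and 28.3% of all tested genes. The 6 higher genes and the median log2 fold change of the list, 0.59, also include PLAU. SERPINB2, the clade B member of this list, stayed near 0 in 5 of 6 libraries and was not tested.

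Serpins of other clades were mostly silent, with 6 of 23 tested and 8 without a read in any library. SERPINF1, an antiangiogenic serpin without inhibitory activity, rose from 254 ± 42.8 to 566 ± 69.4 normalized counts (log2 fold change 1.16, limma adjusted p = 1.41e-05). SERPINA9, a serpin of germinal centre B cells, stood at 2.91 ± 1.78 and 17.9 ± 4.11, and passed the filter only through the null line. These were the 2 counted past the threshold, none as lower, against 7.23% of all tested genes as higher and 7.43% as lower. The median log2 fold change of the 6, SERPINA9 included, was 0.54. Other epithelial protease inhibitors were more widely expressed, with 11 of 19 tested and a median log2 fold change of 0.52. Past the threshold were 4 as higher and 2 as lower, against 7.23% and 7.43% of all tested genes. The most abundant of those past the threshold were TIMP3, an inhibitor of metalloproteinases (log2 fold change 3.22, limma adjusted p = 4e-12), SPINT1, an inhibitor of matriptase and hepsin (1.09, limma adjusted p = 8.91e-09), CST3, a secreted cystatin (-1.41, limma adjusted p = 4.59e-09), and TIMP2 (1.11, limma adjusted p = 1.76e-08). CSTA, a cystatin of the cornified envelope picked with its values known, rose from 754 ± 53.9 to 2997 ± 288 normalized counts (log2 fold change 1.99 by limma, adjusted p = 8.22e-10).

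**Figure D4:**
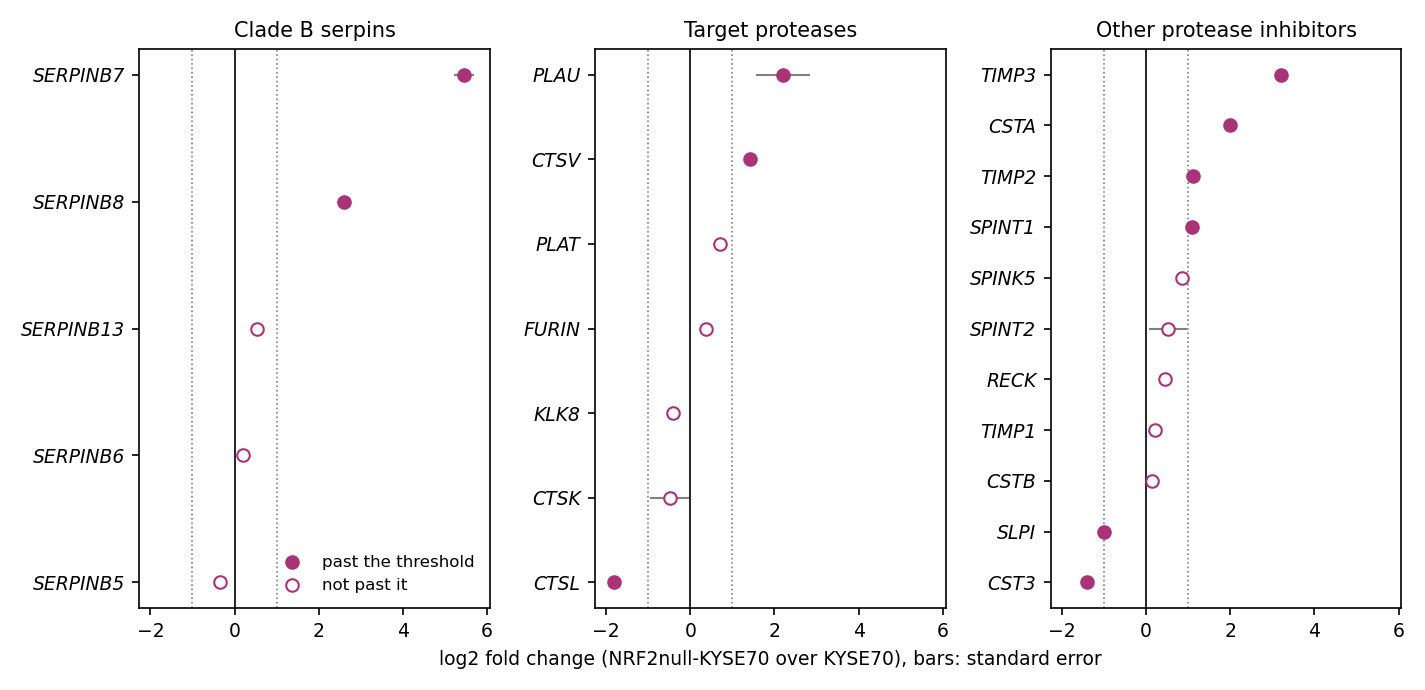
Log2 fold change (NRF2null-KYSE70 over KYSE70) of the tested clade B serpins, their target proteases and other epithelial protease inhibitors, with standard errors as bars; filled points passed the threshold and dotted lines mark log2 fold changes of -1 and 1. SERPINB7 lies furthest right, CTSL and CTSV lie on opposite sides of 0, and TIMP3 leads the other inhibitors.

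Markers of cell type were read beside these results. All 8 squamous epithelial markers were tested and abundant in both lines, with sums from 341105 to 351988 normalized counts in KYSE70 and from 266485 to 282926 in NRF2null-KYSE70. None passed the threshold, and at an adjusted p under 0.05 alone 5 were higher and 3 lower, against 29.3% and 28.3% of all tested genes. Of the leukocyte markers, 1 of 6 was tested, PTPRC, at 0, 0 and 1.05 normalized counts in KYSE70 and 42.6, 40.2 and 47.9 in NRF2null-KYSE70, with sums of the list from 0 to 12.7 and from 42.2 to 58.2. MPO had no read. Of the fibroblast markers, 2 of 6 were tested, and both passed the threshold as lower, against 7.43% of all tested genes. COL1A1 fell from 1232 ± 88.4 to 554 ± 78.9 normalized counts (log2 fold change -1.16, limma adjusted p = 1.31e-06). COL3A1 fell from 257 ± 38.7 to 8.46 ± 2.56 (-4.79, limma adjusted p = 2.63e-08) and passed the filter only through the parental line. The sums of the fibroblast markers ran from 1384 to 1618 in KYSE70 and from 471 to 622 in NRF2null-KYSE70, with COL1A2 and DCN at 0 in every library. Those of the endothelial markers ran from 133 to 149 and from 275 to 450, nearly all from VWF, with KDR at 0. VWF, the 1 of 4 that was tested, passed the threshold as higher (log2 fold change 1.28, limma adjusted p = 4.42e-05), against 7.23% of all tested genes. The part of these markers in the differences of the clade B serpins was not tested.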

How the data were processed

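RNA of KYSE70 and NRF2null-KYSE70 (3 libraries per line) was sequenced. The authors used STAR 2.6.90c (hg38), featureCounts 1.5.1 and normalization by DESeq2, per the labels and the methods of the study; use of strand and treatment of reads with several alignments were not given in the sources used here. The deposited values are a signal in normalized counts, that is, counts divided by 1 size factor per library. Columns named only the line, so library numbers here follow their order in the table.

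Here, whole reads were recovered (100% of values within 0.001 of a whole number), giving 52072801 to 63975313 reads per library. These totals set a floor of 3 reads per library, which covers counting error only. Genes with a mean of at least 10 were tested with limma 3.58.1 (R 4.3.3; eBayes with trend) on log2(normalized count + 1), line as the only term, two-sided, with Benjamini-Hochberg adjustment over all tested genes. Fold changes on this scale understate those of low genes. The script was tested on simulated data. Single values were compared by exact permutation over libraries. Positions and canonical transcripts came from GENCODE v44 (hg38), and 58472 of the gene identifiers matched. Promoters came from RefSeq (GRCh38.p14), and 10 of 10 members matched.

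The members and lists were chosen with earlier results of these data known. The lists held target proteases, plasminogen activation, serpins of other clades, other epithelial protease inhibitors, squamous differentiation and cell type markers, and all 122 symbols were found. Named genes were the members, the other clade B genes, and from each list up to 4 genes of highest mean past the threshold, with the nearest neighbours. Certain genes of the lists are not reported here. Alternatives were other pseudocounts, filters, scalings and variance models, DESeq2 1.42.0 and edgeR 4.0.16 on the recovered reads, omission of each library, neighbour-centring and other lengths.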

Additional observations from a re-analysis of the deposited data

How the results depend on the processing

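SERPINB7 and SERPINB8 stayed past the threshold under the 17 alternatives with a test of their own, and over all 18 run for each had log2 fold changes from 5.19 to 5.64 and from 2.52 to 2.77. SERPINB13 (0.42 to 0.71) and SERPINB5 (-0.41 to -0.16) kept their direction under the same 18, and an adjusted p under 0.05 under the same 17. Subtracting the median of neighbours moves only the fold change, with no new p. SERPINB6 passed an adjusted p of 0.05 only without NRF2null-KYSE70 library 1, and subtracting the median of neighbours within 10 Mb turned it to -0.00099. The count of members past the threshold was 2 under every alternative except an adjusted p under 0.05 alone, which gave 4, 3 higher and 1 lower. Over all genes, 2344 passed. A filter at a mean of 50 gave 1511, since fewer genes were tested, and an adjusted p under 0.05 alone gave 9206. Leaving out each library gave from 2228 to 2346 genes, and the recovered reads gave 2341 by DESeq2 and 2350 by edgeR. Without a filter, SERPINB2 had a log2 fold change of 2.45 (limma adjusted p = 0.0534). The difference in the summed level per kilobase, 310 in the report, was 156 under total scaling, 651.7 without division by length, and ran from 197 without NRF2null-KYSE70 library 3 to 437 without NRF2null-KYSE70 library 1. Use of all annotated exons, chosen after seeing the data, gave 196. Over the alternatives run for this sum its exact permutation p lay between 0.1 and 0.4, and 3 against 3 libraries cannot go below 0.1. SERPINB3 and SERPINB4 summed held 1 read, so no fold change was computed. No paired analysis was possible because the columns carry no replicate numbers.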

Other observations

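Genes of the cornified envelope and of squamous differentiation, in which several clade B serpins are known to take part, did not move as 1 group. Of 24 genes, 9 were tested, 2 were past the threshold as higher and 1 as lower, and 5 did not reach an adjusted p under 0.05 (median log2 fold change 0.05). Over all tested genes, 7.23% were past the threshold as higher and 7.43% as lower, and 57.6% had an adjusted p under 0.05. FLG, encoding the filament-aggregating protein of the epidermis, rose from 4185 ± 601 normalized counts to 21655 ± 6100 (SD over 3 libraries), a log2 fold change of 2.35 with SE 0.148 (adjusted p = 3.62e-08 by limma). KRT4, a keratin of the differentiated esophagus, rose by 2.65 on the log2 scale (SE 0.353 by limma, adjusted p = 3.3e-05) from a low level, whereas KRT13, its usual partner, fell by 1.59 (SE 0.0596 by limma, adjusted p = 3.08e-10). KRT10, picked with its values known, differed by less than the spread between libraries (log2 fold change 0.01, limma adjusted p = 0.966).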
